A study of Mus musculus with 12 samples.

Results

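The lysosomal genes described here are 45 named genes that encode enzymes, membrane proteins, proton pump subunits and regulators of the lysosome. They are given by name, grouped by what their products do. All 45 were found among the 41214 genes of the count files by their symbol, and all 45 were among the 13822 genes that passed the filter on low counts. By role they are 11 glycosidases, 4 sulfatases, 6 lipid hydrolases and cofactors, 8 cathepsins, 2 other proteases, 7 membrane proteins, 4 proton pump subunits, 2 transcription factors and progranulin.

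RNA came from leukaemic cells of 2 genotypes, with 2 replicate libraries each, and the labels do not say whether the replicates are separate mice. The labels call the genotypes Gfi1 KI/wt (het in the RNA labels) and Gfi1 KD/KD (homo), written KI and KD here. Every library, KI included, is of the mouse strain labelled C57/BL6 NUP98-HOXD13, whose fusion transgene causes myelodysplasia and acute myeloid leukaemia, so no group lacks the transgene. Gfi1 is a zinc finger repressor of blood progenitors. Lines of these names carry human GFI1 in place of the mouse coding sequence, in the KD allele at a reduced level, so mouse Gfi1 counts do not give the total GFI1 dose. The promoter of the transgene, the ages, the tissue and any sorting are not stated in the labels. The p-values therefore measure only the spread between these libraries, which may be technical.

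The lysosome is the acidic compartment in which cells break down proteins, sugars, lipids and whole particles. Its soluble hydrolases are made in the endoplasmic reticulum, most are tagged with mannose 6-phosphate, and receptors carry them to the lysosome. A proton pump, the V-ATPase, keeps the interior acidic, and a dense coat of glycosylated membrane proteins such as Lamp1 lines it. Monocytes and macrophages are rich in lysosomes, and the factors TFEB and TFE3 can switch on many lysosomal genes together through an E-box in their promoters.

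That E-box is shown first because it is a sequence feature that a part of these genes share. Windows of 300 bases around an annotated start, 250 before it and 50 after, were available from RefSeq (GRCm38.p6) for 40 members. A gene can have several windows, and a match in any of them was counted. Atp6v1b2, Ctsb, Asah1, Ctsh and Galns have no window here. The letters CACGTG, which read the same on both strands, occurred in the windows of 13 of the 40 members (32.5%) and of 2187 of all 27025 genes with a window (8.09%, or 8.91% of 17492 protein-coding genes). The longer form TCACGTGA, which contains the first, occurred in 7 members (17.5%) and in 1.12% of all genes (1.41% of protein-coding genes). The members with the longer form were Gla, Ctsa, Ctsd, Mcoln1, Cln3, Atp6v0d1 and Atp6v1a. The core of a Gfi1 site, AAATCAC, searched on both strands, occurred in 2 of 40 members (5%) and in 3.64% of all genes. These are matches of letters, with no measure of binding, and base composition was not matched.

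For the 4 roles compared here, stretches of the 150 bases just before an annotated start are given for 6 members. They read 5′ to 3′ on the gene's strand, with each CACGTG in capitals. Glb1 (chr9:114400928-114401077, plus strand) stands for the glycosidases and Ctsd (chr7:142387828-142387977, minus strand) for the cathepsins. Lamp1 (chr8:13159011-13159160, plus strand), Mcoln1 (chr8:3500369-3500518, plus strand) and Cln3 (chr7:126583237-126583386, minus strand) stand for the membrane proteins, and Atp6v1a (chr16:44139260-44139409, minus strand) for the proton pump. The Cln3 and Atp6v1a stretches precede a start inside the annotated span of the gene, 126571207 to 126585817 and 44085402 to 44139702, not its outer end.
Glb1: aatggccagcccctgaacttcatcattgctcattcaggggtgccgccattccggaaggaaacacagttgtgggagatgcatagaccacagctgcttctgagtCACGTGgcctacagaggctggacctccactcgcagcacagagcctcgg
Ctsd: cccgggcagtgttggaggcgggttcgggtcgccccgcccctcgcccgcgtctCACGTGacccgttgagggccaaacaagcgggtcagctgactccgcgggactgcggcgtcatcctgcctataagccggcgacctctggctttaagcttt
Lamp1: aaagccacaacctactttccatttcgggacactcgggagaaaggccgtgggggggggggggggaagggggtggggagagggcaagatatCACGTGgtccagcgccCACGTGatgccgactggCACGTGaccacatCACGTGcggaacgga
Mcoln1: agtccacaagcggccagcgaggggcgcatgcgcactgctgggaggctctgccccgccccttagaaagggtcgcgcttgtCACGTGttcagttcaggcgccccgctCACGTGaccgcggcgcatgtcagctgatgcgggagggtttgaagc
Cln3: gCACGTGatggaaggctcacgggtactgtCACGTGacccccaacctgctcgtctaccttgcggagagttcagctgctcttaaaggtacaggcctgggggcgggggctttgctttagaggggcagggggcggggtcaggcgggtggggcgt
Atp6v1a: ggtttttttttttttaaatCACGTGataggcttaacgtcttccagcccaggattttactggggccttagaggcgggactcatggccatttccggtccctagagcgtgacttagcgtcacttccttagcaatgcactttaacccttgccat

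Lamp1 holds 4 copies, whose first bases lie 61, 45, 28 and 15 bases before the start. Mcoln1 holds 2, at 71 and 45 bases, and Cln3 holds 2, at 149 and 121 bases. In Glb1, Ctsd and Atp6v1a the stretch holds 1 copy, at 48, 98 and 131 bases. Ctsd has another copy at 245 bases. The 6 genes were picked among those with a copy in this stretch, and in Gla (227 and 194 bases) and Ctsl (236 bases) the copies lie farther out.

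**Figure D1:**
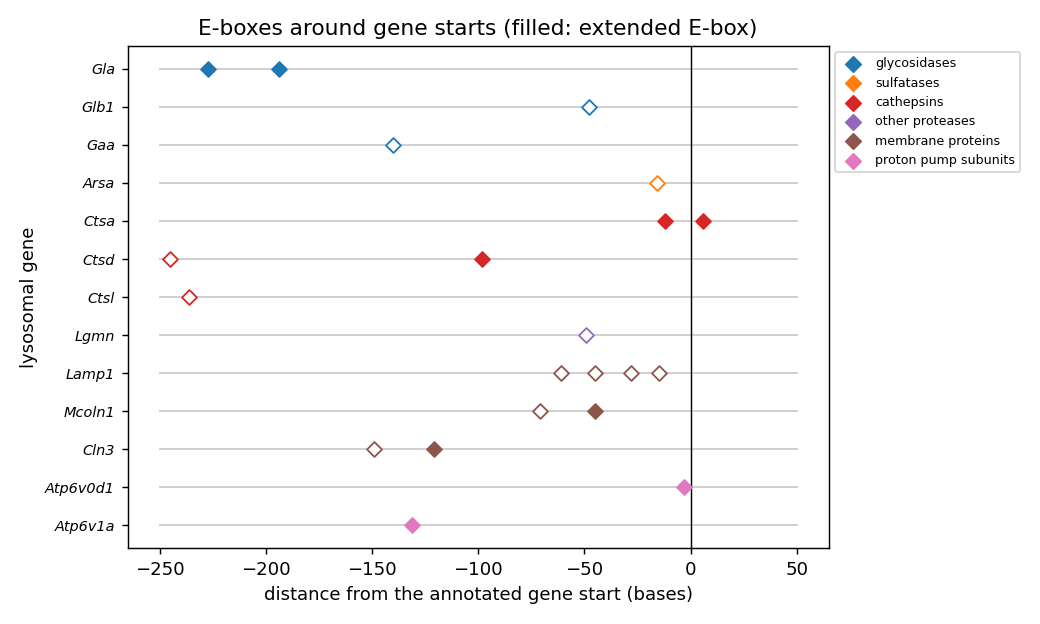
Positions of CACGTG in the windows of the 13 members that hold it. The x axis is the distance in bases of its first base from the annotated start in that window. Each row is a member, colours are roles, and filled diamonds are copies within TCACGTGA. Lamp1 shows 4 copies within 61 bases of the start, and Gla shows 2 filled ones at 227 and 194 bases.

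Lysosomal genes lay higher in KD than in KI leukaemia as a group, by a modest margin. Of the 45 members 41 had a positive log2 fold change (KD minus KI) and 4 a negative one, and the median was 0.71, a ratio of 1.63. Over all 13822 genes tested, 44.5% were positive and the median was -0.06. In 30 members both KD libraries lay above both KI libraries, against 14.5% of all genes, and in 1 member, Arsb, both lay below, against 23.5% of all genes. Scaling moved both shares, to 40 members and 42.3% of all genes higher with library size only and to 25 members and 11% with upper quartile scaling. A fold change of at least 0.5 was found in 28 members and in 10.3% of all genes. Levels are given as CPM, a gene's count relative to its library's total after TMM scaling. Of the 8095 genes whose mean lies within the members' range of 11.8 to 1737 CPM, 20.4% had KD above KI and the median was 0.07.

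No single member passed the test. In edgeR's quasi-likelihood test with Benjamini-Hochberg adjustment over all genes, 0 members and 0% of all genes were called, and the adjusted p of the members was at least 0.518. At an unadjusted p under 0.05 stood 8 members higher in KD, against 1.29% of all genes, and 0 lower, against 8.34%. The count of 8 was not stable: it was 2 (0.55% of all genes) without KD replicate 1, 4 (1.02%) without KD replicate 2 and 23 (9.09%) without KI replicate 1. It was 25 (10.6%) with library size only, 15 (1.88%) with RLE scaling, 16 (1.33%) with no low-count filter, 27 (4.58%) with a replicate block, 16 (2.02%) in DESeq2 and 13 (1.95%) in limma-voom. DESeq2 called 0 members and 1.03% of all genes, and limma-voom called 0 of either. Without KI replicate 1 edgeR called 4 members higher in KD (Asah1, Gm2a, Ctsh and Cd68), against 1.08% of all genes, with the single KI library then taken to be as variable as the KD libraries.

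**Figure D2:**
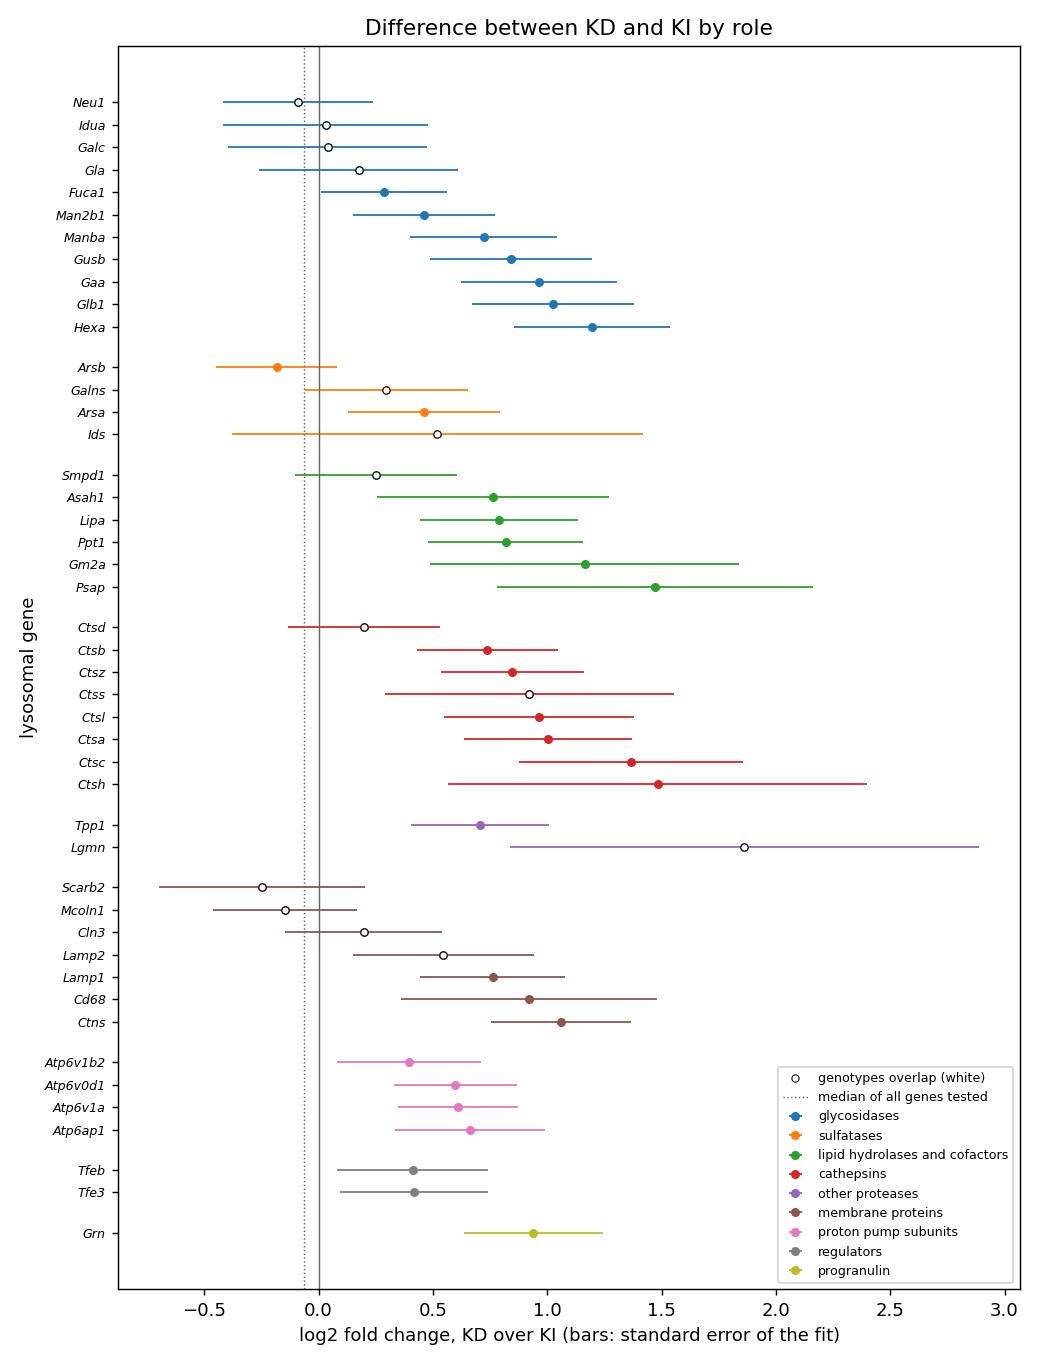
Log2 fold change of each member, KD over KI, by role, where points are edgeR estimates, bars their standard error, white points are members whose genotypes overlap, and the dotted line is the median of all genes tested, at -0.06. 41 of 45 points lie right of 0, with Lgmn farthest right at 1.86 and Scarb2 farthest left at -0.25.

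Gene counts per library ran from 4581593 to 11934542, lowest in KI replicate 1. There 88.3% of uniquely aligned reads were assigned to no gene feature, against 63.2% to 68.3% elsewhere. The strand setting, on which this share and the counts of all genes can depend, is not stated. Genes of odorant, vomeronasal and taste receptors, silent in blood, took 913 CPM (unscaled) in KI replicate 1 and 154 to 179.7 in the others. Gfi1 lay at 36.2 and 89.0 CPM in KI against 7.22 and 1.12 CPM in KD, lower in both KD libraries (log2 -3.89 ± 0.95, SE). The leukocyte gene Ptprc ran from 329 to 1092 CPM and the myeloid gene Mpo from 897 to 2177 CPM over the 4 libraries.

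Glycosidases trim sugars from glycoproteins, glycolipids and glycogen. Of the 11, 10 were positive, 7 had KD above KI and 4 overlapped, with a median of 0.46. Hexa, the alpha subunit of beta-hexosaminidase, which degrades GM2 ganglioside, lay at 120.4 and 74.1 CPM in KI replicates 1 and 2 and at 208 and 237 CPM in KD replicates 1 and 2. Its KD libraries lay close together and above both KI libraries, with means of 97.3 ± 32.7 CPM in KI and 223 ± 20.8 CPM in KD (SD, n = 2). The log2 fold change of 1.20 ± 0.34 (SE) was the largest of the class, a ratio of 2.29. Glb1, beta-galactosidase, lay at 21.3 and 16.6 CPM in KI against 31.5 and 45.5 CPM in KD, and Gaa, the acid alpha-glucosidase of glycogen breakdown, at 22.3 and 25.6 CPM in KI against 37.4 and 56.2 CPM in KD. Their log2 fold changes were 1.02 ± 0.35 and 0.96 ± 0.34. In both genes KD replicate 2 was the highest library and the KI libraries lay near each other. Gusb, beta-glucuronidase, lay at 88.4 and 138 CPM in KI against 169 and 237 CPM in KD (0.84 ± 0.36), and Manba, beta-mannosidase, at 30.4 and 45.8 CPM in KI against 60.8 and 65.3 CPM in KD (0.72 ± 0.32). In these 2 genes KI replicate 1 was the lowest library. Man2b1, an alpha-mannosidase, lay at 359.7 and 353 CPM in KI against 549 and 431 CPM in KD, a smaller difference of 0.46 ± 0.31 with no overlap. Neu1, the sialidase, went the other way at -0.09 ± 0.33, with 67.5 and 92.2 CPM in KI against 61.5 and 88.6 CPM in KD, and its genotypes overlapped. With library size only, Neu1 became positive. The other glycosidases, Gla, Galc, Idua and Fuca1, had values between 0.03 and 0.29, and of these Fuca1 alone had KD above KI.

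Sulfatases remove sulfate from glycosaminoglycans and sulfatide, and the 4 measured here went apart. Arsa, arylsulfatase A, lay at 14.8 and 18.7 CPM in KI against 22.9 and 23.4 CPM in KD (0.46 ± 0.33), with KD above KI. Arsb, arylsulfatase B, lay at 61.0 and 68.0 CPM in KI against 56.0 and 57.6 CPM in KD (-0.18 ± 0.27), the 1 member with both KD libraries below both KI libraries, by a small margin that turned positive with library size only. Galns, which acts on keratan sulfate, lay at 64.5 and 105 CPM in KI against 87.7 and 121 CPM in KD (0.30 ± 0.36). Ids, iduronate sulfatase, lay at 29.7 and 4.03 CPM in KI against 31.1 and 16.5 CPM in KD (0.52 ± 0.90), with KI replicate 2 far below the other 3 libraries. Without KI replicate 2 the value for Ids was -0.23, and without KI replicate 1 it was 2.71.

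Lipid hydrolases and their cofactors were positive in 6 of 6, with a median of 0.80 and KD above KI in 5. Psap (ENSMUSG00000004207, GRCm38 chromosome 10, 60277628 to 60302600), the precursor of the saposins that present lipids to hydrolases, lay at 1465 and 378 CPM in KI replicates 1 and 2 and at 2794 and 2312 CPM in KD replicates 1 and 2. KI replicate 2 was the lowest library by far, while KI replicate 1 lay nearer to the KD libraries. Its log2 fold change was 1.47 ± 0.69, with 0.88 without KI replicate 2 and 2.90 without KI replicate 1. Gm2a, the activator that lifts GM2 ganglioside out for Hexa, had the same shape at 189 and 45.1 CPM in KI against 306 and 217 CPM in KD (1.16 ± 0.67, 0.55 without KI replicate 2 and 2.68 without KI replicate 1). Asah1, acid ceramidase, lay at 136 and 48.6 CPM in KI against 152 and 160.4 CPM in KD (0.76 ± 0.51, 0.27 without KI replicate 2 and 1.82 without KI replicate 1), so that KI replicate 1 came close to the KD libraries. Lipa, lysosomal acid lipase, lay at 52.0 and 31.0 CPM in KI against 73.7 and 69.3 CPM in KD (0.79 ± 0.35), and Ppt1, which removes palmitate from proteins, at 65.6 and 40.8 CPM in KI against 102 and 85.0 CPM in KD (0.82 ± 0.34). These 2 showed the order KI replicate 2, KI replicate 1, then both KD libraries. Smpd1, acid sphingomyelinase, lay at 14.1 and 19.6 CPM in KI against 19.5 and 20.8 CPM in KD (0.25 ± 0.35) and overlapped.

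Cathepsins, the lysosomal proteases, were positive in 8 of 8, and their median of 0.94 was the largest of the 4 roles compared here. KD lay above KI in 6 of them. Ctsc, which activates the serine proteases of myeloid granules, lay at 159 and 73.4 CPM in KI replicates 1 and 2 and at 377 and 220.5 CPM in KD replicates 1 and 2. Its highest library was KD replicate 1 and its lowest KI replicate 2, and the log2 fold change was 1.37 ± 0.49, a ratio of 2.58. The estimate for Ctsc ran from 0.93 without KD replicate 1 to 2.18 without KI replicate 1. Ctsa, the carboxypeptidase that protects Glb1 and Neu1, lay at 164 and 90.9 CPM in KI against 258 and 253 CPM in KD (1.00 ± 0.37), with the KD libraries nearly equal. Ctsz, a carboxypeptidase, lay at 122 and 157 CPM in KI against 215 and 286 CPM in KD (0.85 ± 0.31), and Ctsb, a cysteine protease, at 362 and 315 CPM in KI against 608 and 521 CPM in KD (0.74 ± 0.31). In these 2 the KI libraries lay within a narrow range of each other. Ctsl, a cysteine endopeptidase, lay at 16.9 and 12.2 CPM in KI against 21.1 and 35.6 CPM in KD (0.96 ± 0.42). Ctsh, an aminopeptidase, had the largest estimate of the class, 1.48 ± 0.91, and the widest spread, at 129 and 14.8 CPM in KI replicates 1 and 2 and at 188 and 213 CPM in KD replicates 1 and 2. KI replicate 1 was 8.73 times KI replicate 2 in Ctsh, and the value was 0.70 without KI replicate 2 and 3.89 without KI replicate 1. Ctss, which trims the invariant chain of MHC class II, overlapped, at 321 and 92.5 CPM in KI against 486 and 296 CPM in KD (0.92 ± 0.63, 0.37 without KI replicate 2 and 2.23 without KI replicate 1). Ctsd, the aspartic protease whose promoter is printed above, had the smallest value of the class, 0.20 ± 0.33, at 208 and 297 CPM in KI against 254 and 326 CPM in KD, and overlapped.

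Among the other proteases, Tpp1, a tripeptidyl peptidase, lay at 26.2 and 22.5 CPM in KI against 43.0 and 36.5 CPM in KD (0.71 ± 0.30), with KD above KI. Lgmn, legumain, which cuts after asparagine and processes cathepsins, lay at 17.6 and 2.25 CPM in KI replicates 1 and 2 and at 53.6 and 16.7 CPM in KD replicates 1 and 2. Its log2 fold change of 1.86 ± 1.02 was the largest of all members, but its genotypes overlapped, and the value moved from 0.77 without KD replicate 1 to 4.13 without KI replicate 1. Grn, the precursor of the granulins, lay at 157 and 121 CPM in KI against 239 and 294 CPM in KD, means of 139 ± 26.1 CPM in KI and 266 ± 39.3 CPM in KD (SD, n = 2). KD lay above KI in Grn by 0.94 ± 0.30, and the estimate stayed between 0.78 and 1.27 without each library in turn.

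Membrane proteins were less uniform, with 5 of 7 positive, 3 with KD above KI and a median of 0.55. Ctns (ENSMUSG00000005949, GRCm38 chromosome 11, 73183133 to 73199115), the cystine exporter, lay at 16.7 and 16.5 CPM in KI replicates 1 and 2 and at 32.8 and 36.4 CPM in KD replicates 1 and 2. The libraries of each genotype lay close together and apart from the other genotype, with a log2 fold change of 1.06 ± 0.31, a ratio of 2.08, and 0.98 to 1.20 without each library in turn. Lamp1, a main coat protein of the lysosome, whose promoter carries 4 E-boxes, lay at 328 and 379.5 CPM in KI against 533 and 667 CPM in KD (0.76 ± 0.32). Cd68, a heavily glycosylated protein of the same family and a macrophage marker, lay at 59.4 and 19.0 CPM in KI against 82.4 and 65.0 CPM in KD (0.92 ± 0.56). KI replicate 2 was the low library in Cd68, and the value was 0.39 without it and 2.099 without KI replicate 1. Lamp2, which takes part in autophagy, lay at 223 and 124 CPM in KI against 297 and 210.0 CPM in KD (0.55 ± 0.40) and overlapped, as did Cln3 (0.20 ± 0.34). Scarb2, the receptor that brings glucocerebrosidase to the lysosome, went the other way, at 40.6 and 88.0 CPM in KI against 44.6 and 64.1 CPM in KD (-0.25 ± 0.45). KI replicate 2 was its highest library, and the sign turned without it (0.48) and with library size only (0.22). Mcoln1, a calcium channel and known target of TFEB, lay at 22.5 and 24.6 CPM in KI against 20.0 and 22.6 CPM in KD (-0.14 ± 0.31), with all 4 libraries in a narrow range.

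Proton pump subunits had the narrowest range of fold changes of the 4 roles compared, but also the fewest members. A range tends to grow with the number of genes. In this class 4 of 4 were positive, with KD above KI in 4 and values from 0.39 to 0.66 (median 0.60). Atp6v1a, the catalytic A subunit of the cytosolic part, lay at 116 and 121 CPM in KI replicates 1 and 2 and at 172 and 189 CPM in KD replicates 1 and 2, with a log2 fold change of 0.61 ± 0.26. Atp6v0d1, a subunit of the membrane part, lay at 44.3 and 49.9 CPM in KI against 69.8 and 73.0 CPM in KD (0.60 ± 0.27). In both genes the libraries of a genotype lay within a narrow range. Atp6v1b2, the B subunit, lay at 149 and 221 CPM in KI against 244 and 242 CPM in KD (0.39 ± 0.32), with KI replicate 2 near the KD libraries. Atp6ap1, an accessory subunit, lay at 114 and 72.1 CPM in KI against 159.9 and 134 CPM in KD (0.66 ± 0.33), with KI replicate 2 lowest. The uniform sign did not extend to the rest of the pump: of 14 other subunits tested out of 17 listed, 9 were positive and 5 negative, with KD above KI in 2, below in 1, and a median of 0.11.

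Tfeb and Tfe3, which can switch on many of these genes, had fold changes below the median of the 45 members, a difference that was not tested. Tfeb lay at 38.5 and 39.4 CPM in KI against 62.7 and 40.9 CPM in KD (0.41 ± 0.33), so that KD replicate 2 barely exceeded the KI libraries, and without KD replicate 1 its value was 0.07. Tfe3 lay at 43.6 and 29.9 CPM in KI against 53.0 and 44.9 CPM in KD (0.42 ± 0.33). In Tfeb and Tfe3 every KD library lay above every KI library. Of the other regulators, Mitf, at 0.81 ± 0.94, lay above that median and Tfec, at 0.58 ± 0.61, below it. Both overlapped. The 13 members with a CACGTG in a window had a median of 0.61, with 12 positive and 8 with KD above KI. The 27 members with a window and no CACGTG had a median of 0.71, with 24 positive and 18 with KD above KI. The difference between these medians was not tested. These are RNA levels. The activity of TFEB and TFE3 is set in large part by where the protein sits in the cell, which RNA does not measure.

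Set side by side, the medians were 0.94 for cathepsins, 0.60 for proton pump subunits, 0.55 for membrane proteins and 0.46 for glycosidases. Single members had standard errors of 0.26 to 1.02, and differences between the roles were not tested. The cathepsin median ran from 0.71 without KI replicate 2, below the proton pump median of 0.73 in that fit, to 1.48 without KI replicate 1. The membrane protein median ran from 0.28 without KD replicate 1 to 0.79 without KI replicate 1. With library size only, the median of all genes moved from -0.06 to 0.37 and that of the 45 members to 1.11, so the gap between them stayed at 0.75 against 0.77.

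**Figure D3:**
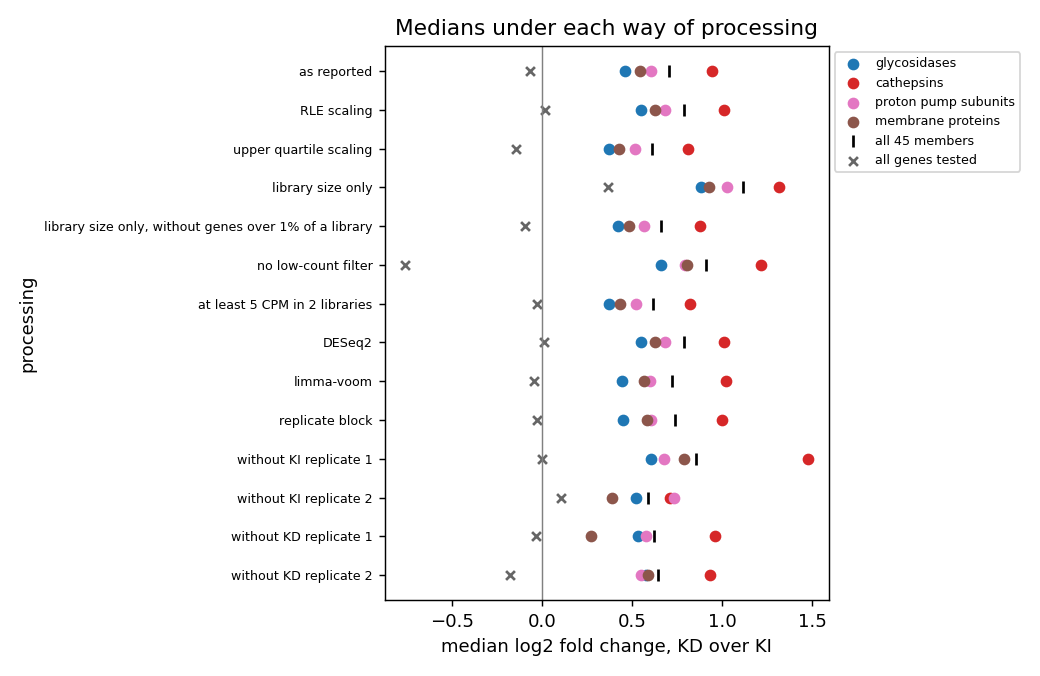
Median log2 fold change (x axis, KD over KI) under each way of processing (rows), for the 4 roles, the 45 members and all genes tested. The medians of the members lie between 0.59 and 1.11 in every row and to the right of the cross for all genes, and the cathepsins lie farthest right of the 4 roles in each row except the one without KI replicate 2.

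The libraries of a genotype were not alike. KI replicate 2 was the lowest of the 4 libraries for 25 members and KI replicate 1 for 15, whereas a KD library was lowest for 5. A KD library was the highest for 40 members, 20 in each replicate. Between the KI libraries 9 members (20%) differed by more than 2-fold with replicate 1 higher, against 24.1% of all genes tested: Ids, Asah1, Psap, Gm2a, Ctsc, Ctsh, Ctss, Lgmn and Cd68. Of these Ids, Gm2a, Ctsh and Lgmn differed by more than 4-fold (8.89%, against 12.2% of all genes), and 1 member, Scarb2, differed by more than 2-fold the other way, against 12.3%. Between the KD libraries Lgmn alone (2.22%) differed by more than 2-fold, at 3.22 times in replicate 1, against 6.48% of all genes. With KD replicate 2 higher it was 0% of members, against 7.38% of all genes. Leaving out KI replicate 1 moved the fold change of 11 members by over 1.5 times, KI replicate 2 that of 6, and either KD replicate that of 1. Without KI replicate 2, 40 members were positive, with a median of 0.59 against 0.10 for all genes. In that fit KD lay above KI in 36 members, against 45.2% of all genes. Idua, Ids and Cln3 turned negative there, and Neu1 and Scarb2 turned positive. Without KI replicate 1, 41 were positive, with a median of 0.85 against 0.00, and KD lay above KI in 37, against 37.9%.

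**Figure D4:**
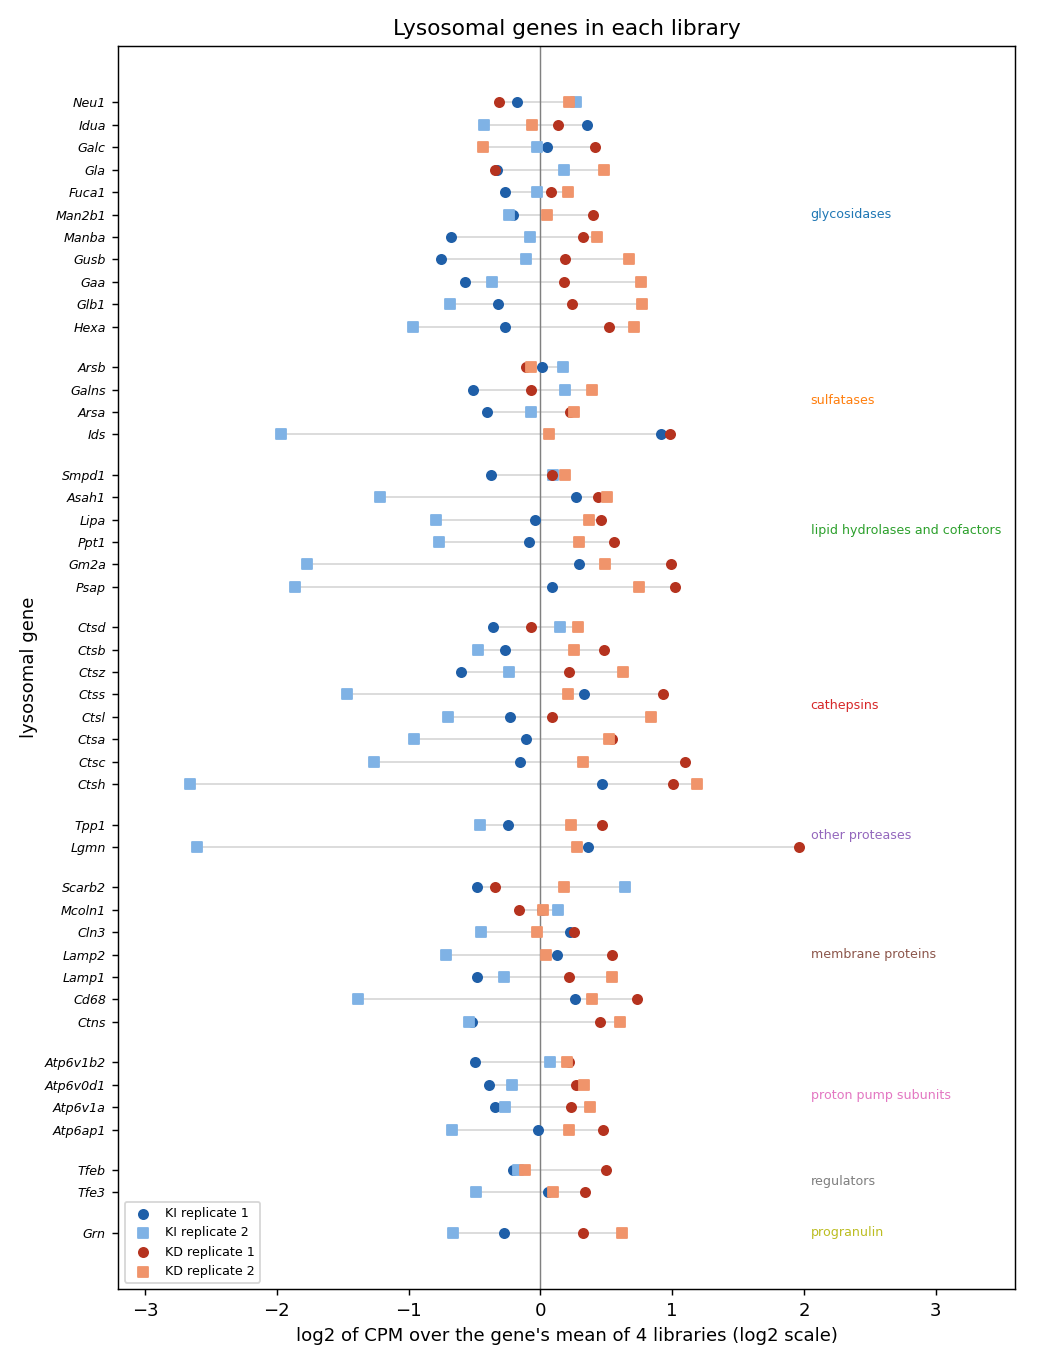
Level of each member in each library, as log2 of its CPM over the gene's mean of the 4 libraries (mean of log2 CPM), by role, where blue symbols are KI and red or orange symbols KD libraries, circles replicate 1 and squares replicate 2. In 30 members both KD symbols lie right of both blue ones, and light blue squares (KI replicate 2) lie far left for Ctsh, Lgmn, Ids, Psap and Gm2a.

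Markers of monocytes, which are rich in lysosomes, were higher in KD alongside these genes. Of 10 monocyte markers 9 were positive and 6 had KD above KI, against 44.5% and 14.5% of all genes, with a median of 0.88. Their summed level was 2821 and 2348 CPM in KI against 4042 and 4773 CPM in KD. The 45 lysosomal genes summed to 5829 and 4022 CPM in KI and 9442 and 8694 CPM in KD. The sum of the lysosomal genes over that of the monocyte markers, a ratio chosen after the values were seen, was 2.07 and 1.71 in KI and 2.34 and 1.82 in KD, which overlap. Without Psap it was 1.55 in both KI libraries and 1.64 and 1.34 in KD. In bulk RNA, fewer cells of a type and less RNA per cell cannot be told apart.

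Of 7 tissue macrophage markers tested, 6 were negative and 1 positive, with a median of -1.66. KD lay below KI in 4, against 23.5% of all genes, and above in 1, against 14.5%. The complement genes C1qa, C1qb and C1qc lay below 3 CPM in every library and lower in KD, and Marco, Cd5l, Timd4 and Vsig4 had at most 21 counts and were not tested, with none of the 11 markers at 0 in every library. The 7 tested markers summed to 141 and 61.8 CPM in KI and 162 and 124 CPM in KD, most of it Adgre1, which lay at 99.0 and 36.2 CPM in KI against 148 and 111 CPM in KD. Siglec1 lay at 16.2 and 3.92 CPM in KI against 1.77 and 1.30 CPM in KD, while Mrc1 and Vcam1 overlapped at 1.73 to 13.7 CPM. Mature neutrophil markers went opposite to the monocyte markers, with 11 of 11 negative and KD below KI in 10, against 23.5% of all genes. Their sums were 16274 and 17043 CPM in KI against 3581 and 1618 CPM in KD. Erythroid markers were negative in 11 of 11 (484 and 476 CPM in KI, 67.4 and 3.46 in KD), and T cell markers in 10 of 10 (75.8 and 72.5 against 12.8 and 16.8). Dendritic cell and MHC class II markers summed to 544 CPM in KI replicate 1 and 78.5 in KI replicate 2, with 138 and 68.6 in KD, so KI replicate 1 stood out there too. Eosinophil, basophil and mast cell markers summed to 35.7 and 22.3 CPM in the KI libraries and 139 and 45.5 CPM in the KD libraries. Of 7 tested, 5 were positive, Cpa3 by only 0.03, while Ear2 (-0.59) and Ms4a2 (-0.12) were negative. Prg2, an eosinophil granule protein, lay at 4.41 and 1.78 CPM in KI against 102 and 14.2 CPM in KD. It made up most of the sum in KD replicate 1. The progenitor marker Cd34 lay at 32.5 and 6.41 CPM in KI against 68.4 and 119.7 CPM in KD. Kit, another progenitor marker, went the other way, at 55.2 and 52.7 CPM in KI against 34.1 and 27.0 CPM in KD. Flt3 overlapped, at 32.0 and 53.6 CPM in KI against 36.2 and 29.0 CPM in KD. Among all 7 leukocyte and progenitor markers, KD lay above KI in 1 (Cd34) and below in 1 (Kit), while 5 overlapped. The part of these cell types in the lysosomal result was not tested.

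**Figure D5:**
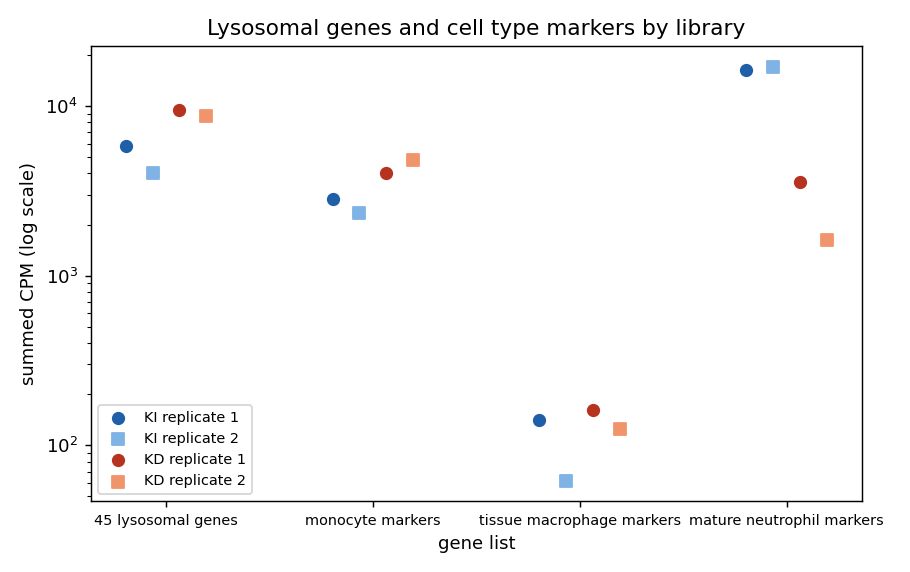
Summed CPM (log scale) of the 45 lysosomal genes and of 3 marker lists, 1 point per library. Lysosomal and monocyte sums are higher in both KD libraries (9442 and 8694, and 4042 and 4773) than in both KI libraries, mature neutrophil sums are lower, and tissue macrophage sums overlap, from 61.8 to 162.

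Other genes of the pathway leaned the same way with less uniformity. Of 95 listed, 89 were tested and 69 were positive, with a median of 0.28. KD lay above KI in 37 (41.6%) and below in 6, and 0 were called by edgeR. Over all genes tested 44.5% were positive, 14.5% had KD above KI and 23.5% had KD below. Among hydrolases, Naglu, which acts on heparan sulfate, lay at 18.1 and 19.5 CPM in KI against 22.4 and 41.6 CPM in KD (0.77 ± 0.40). Pla2g15, a lysosomal phospholipase, lay at 0.88, the cholesterol carrier Npc2 at 0.63, and the sulfatase Sgsh at 0.54. Outside the 45, sulfatases and cathepsins were positive in 2 of 3 tested each, with medians of 0.38 and 0.03. The other hydrolase classes were mostly positive: 9 of 10 glycosidases, 6 of 6 lipid enzymes and cofactors and 4 of 4 further proteases. Among these proteases Scpep1 lay at 1.62 ± 0.81 and Prcp at 1.01 ± 0.45. Without KI replicate 1 Scpep1 was 3.603, with adjusted p = 0.0127 in edgeR, and without KI replicate 2 it was 0.88. Cathepsins outside the 45 were few, with Ctse at 1.07 ± 0.65 and Ctsw, a protease of cytotoxic lymphocytes, at -1.87 ± 1.65, both overlapping. Ctsw rested on 29 and 2 counts in KI and 23 and 2 counts in KD. Without KI replicate 1 Ctsw was 2.08, a turn of sign, and Ctse was 0.58 in that fit and 2.37 without KI replicate 2. Of 19 further membrane proteins tested 16 were positive, with Laptm4a at 0.82 ± 0.35 and Laptm5, of blood cells, at 0.71 ± 0.31. Of the further pump subunits, Atp6v0a2 lay at 0.49 ± 0.29, and Atp6v1g2, a G subunit best known from neurons, at -1.64 ± 0.63 on under 8 CPM in each library.

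A gene of enzyme sorting had the largest fold change of the 89 genes, and it was lower in KD. Igf2r (ENSMUSG00000023830, GRCm38 chromosome 17, 12682406 to 12769706), the large mannose 6-phosphate receptor that carries hydrolases to the lysosome and also binds insulin-like growth factor 2, lay at 23.2 and 131 CPM in KI replicates 1 and 2 and at 6.58 and 3.97 CPM in KD replicates 1 and 2. Both KD libraries lay below both KI libraries, with a log2 fold change of -3.87 ± 0.88 and adjusted p = 0.518 in edgeR, and DESeq2 gave -3.75 with adjusted p = 0.000292. In edgeR without KI replicate 2 Igf2r was -2.05. The KI libraries differed by 5.65 times. An antisense RNA, Airn, overlaps this gene, and without a stated strand setting their reads cannot be told apart. M6pr, the small receptor for the same tag, lay at 136 and 294 CPM in KI against 172 and 265 CPM in KD (0.02 ± 0.46, named after its values were seen), and Nagpa, which uncovers the tag, at 0.79 ± 0.32. Of 12 sorting genes 9 were positive, with a median of 0.26. Among 18 regulators of the mTORC1 and TFEB axis 12 were positive, with a median of 0.23. Fnip2, a partner of folliculin, lay at 40.8 and 13.2 CPM in KI against 85.3 and 63.8 CPM in KD (1.48 ± 0.57, 2.64 without KI replicate 1 and 0.95 without KI replicate 2), and Rragd, a Rag GTPase, at -2.03 ± 1.22 on at most 5.10 CPM, or -0.16 without KI replicate 1.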

How the data were processed

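Raw counts per Ensembl gene for 4 RNA libraries were deposited by the authors. TopHat2 2.0.10, SAMtools, HTSeq, DESeq and build GRCm38 are named, without their roles, per the submitters' processing notes. The kit is stranded, per the labels' protocols. The sources used here do not give the strand setting, annotation release or filters. Summary entries that name no gene (93.2% to 97.9% of each deposited total) were left out. The 8 chromatin libraries are not analysed here, since the 1616 columns of their 4 tables name no antibody or replicate.

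Symbols matched 40254 of 41214 genes. In R 4.3.3 genes were kept with filterByExpr, scaled by TMM (factors 0.957, 0.778, 1.19 and 1.13) and tested across all 13822 genes with edgeR 4.0.16 (glmQLFit, glmQLFTest, genotype only, Benjamini-Hochberg at 0.05). Errors of fold changes are the estimate over the root of F. DESeq2 1.42.0 and limma 3.58.1 (voom) were alternatives, beside other scalings, filters, a replicate block and leaving out each library. In the scaled libraries 3 counts equal 0.212 to 0.696 CPM, and precision from counting is best in the deeper libraries. Exon lengths were not used here, so levels are not compared between genes per length.

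The members and lists were chosen with earlier results of these data known. Values per library are given for members with the highest mean CPM, lowest p, largest or smallest fold change of a class of at least 4, for those with no overlap and a log2 fold change of at least 0.5, and for Tfeb, Tfe3, Lgmn, Tpp1 and Grn. Of other pathway genes the 2 with the lowest p per class are named, except for items that are not reported here. Ctss, Lamp2, Cln3, Mcoln1, M6pr, Mitf and Tfec fall outside this rule and were added after their values were seen.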

Additional observations from a re-analysis of the deposited data

How the results depend on the processing

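No alternative that kept all 4 libraries called a member, and the medians of the 45 members and of the 4 roles stayed positive in all 13 alternatives. The number of genes called moved from 0 to 169 with no low-count filter, 142 in DESeq2 and 7 with the replicate number as a block, and was 39 (without KD replicate 2) to 787 (without KI replicate 2) without each library in turn. The block called 0 members and gave them a median of 0.74. The numbers do not show that samples were paired (r = 0.31 across genes between the replicate differences of the genotypes). Members called were 0 to 4 without each library in turn, and other pathway genes called were 1 (Igf2r) with no low-count filter and in DESeq2, and 1 to 7 without each library in turn, both highest without KI replicate 1. With library size only, the medians were 1.11 for the members, 0.88 for glycosidases, 1.03 for proton pump subunits and 0.93 for membrane proteins. With no low-count filter they were 0.91 for the members and 0.80 for proton pump subunits. The cathepsin median was 0.71 to 1.48 without each library in turn. Of 481 values of 37 named members, 10 changed sign. With library size only Neu1 was 0.35, Arsb 0.24 and Scarb2 0.22, and with no low-count filter Neu1 was 0.081 and Arsb 0.0070. The 3 genes with over 1% of a library took 39.0% and 44.4% of gene counts in KI and 19.4% and 21.2% in KD. With library size only and these 3 genes left out, Neu1 was -0.12, Arsb -0.22 and Scarb2 -0.26. The median of all genes was then -0.09. Without each library in turn, Neu1 ran from -0.38 to 0.21, Ids from -0.23 to 2.71 and Scarb2 from -0.57 to 0.48. The cause of these shifts was not tested. Depth limits KI replicate 1 most, with 4581593 gene counts.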
